A study of Mus musculus with 16 samples.

Results

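Hmgcs1, Idi1, Fdft1, Sqle, Lss, Cyp51, Srebf2 and Insig1 are genes of cholesterol synthesis and of its control. They were found by symbol among 46078 genes of the count table, each on 1 row, and all 8 members were among the 14897 genes tested. Mouse juxtaglomerular (JG) cells, which line the afferent arteriole and produce renin, had been engineered to carry YFP driven by the renin promoter and were grown in monolayer culture. They were transfected with a non-mammalian control microRNA precursor or with miR-106b and collected 48 h later, with no untransfected cells among the groups. From each transfection, polyA RNA was sequenced from 4 cultures, and RNA bound to Ago2, the Argonaute protein that holds microRNAs on their targets, was immunoprecipitated from another 4 cultures. Comparing the kinds of RNA addresses which transcripts miR-106b moves onto Ago2. The 16 libraries held between 2579086 and 9459585 counts. Median depth was 6450099 and 3645937.5 counts for polyA libraries of control and miR-106b cells, and 3638859.5 and 3264121.5 counts for Ago2 libraries of the same.

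Cells build cholesterol from acetyl-CoA by way of mevalonate, isoprenoid diphosphates, squalene and lanosterol. When sterol in the endoplasmic reticulum is low, SCAP escorts the membrane-bound factor SREBP-2 to the Golgi, where proteases release the part that switches on the genes of the pathway. When sterol is high, INSIG proteins hold SCAP and SREBP in the endoplasmic reticulum. Of the 8 members, 6 encode enzymes and 2 encode proteins of this control, and none is an uptake receptor, so uptake is described here from other genes.

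The labelled cell type was checked against its markers. Ren1, which encodes renin, had 0 counts in all libraries, and Akr1b7, another marker of renin cells, stayed at or under 0.574 CPM (counts scaled by library size). Des, a muscle filament gene, was the most abundant of the 10 juxtaglomerular and mural genes listed, whose summed level was 2443 to 2668 CPM in polyA control, 3448 to 4349 CPM in polyA miR-106b and 4803 to 5349 CPM in Ago2 libraries. Of 8 of them tested by edgeR in polyA RNA, 5 were higher (19.0% of all genes), 1 lower (21.5% of all genes) and 2 not called with miR-106b, at a median log2 fold change of 1.10. Des went from a mean of 1096 to 2553 normalized CPM, while Tagln was called lower by edgeR (log2 fold change -0.48) and Acta2 was not called (-0.33). Transcripts of heart muscle were abundant in every library. The 25 cardiac genes listed took 3.23%, 2.52%, 2.72% and 3.58% of counts in polyA control replicates 1 to 4, and 4.93%, 8.52%, 6.15% and 8.25% in polyA miR-106b replicates 1 to 4. They took 12.1%, 12.2%, 11.9% and 11.4% of counts in Ago2 control replicates 1 to 4, and 11.4%, 11.1%, 11.8% and 12.2% in Ago2 miR-106b replicates 1 to 4. Myh6, the cardiac alpha-myosin heavy chain, led this list with 8371 to 11930 CPM in polyA libraries of control cells, 16280 to 28290 CPM in those of miR-106b cells and 36740 to 40530 CPM in Ago2 libraries. Cell types that use much cholesterol were close to absent: the 5 liver genes summed to at most 3.88 CPM and the 5 genes of steroid-producing cells to at most 5.51 CPM in any library. RNA was not separated by cell type, so fewer cells of a type and less RNA per cell cannot be told apart. The source of the cardiac transcripts was not tested.

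Transcripts of all 8 members were lower in polyA RNA of miR-106b cells than of control cells under every scaling but 1, described below, under which 5 of them changed sign and none was called. With edgeR's quasi-likelihood F test and Benjamini-Hochberg adjustment over all genes tested, 8 of 8 members passed an adjusted p of 0.05 as lower, against 21.5% of all genes (3198 of 14897), and none as higher, against 19.0% of all genes (2836). The median log2 fold change was -0.93 over the members and -0.05 over all genes tested. In all 8, every miR-106b library lay below every control library, as was the case for 21.6% of all genes. Members and lists were chosen with earlier results of these data known. Their counts here and below are therefore a description and no test against all genes. These directions are relative to the bulk of the RNA, and 5 of them did not hold under 1 other scaling. When the polyA libraries were scaled over the 956 genes at least 4-fold lower in Ago2-bound than in polyA RNA of control cells, a choice made after seeing the data, 0 of 8 members passed as lower. This scaling moves all genes by nearly the same amount, so which members change sign follows from the size of their change under the main scaling. The members' median was then 0.10 and the median of all genes rose to 1.01. Of 14897 genes 11008 were called, with 98.8% of calls higher in place of 47%. Few genes of any kind thus passed as lower, and no member passed as higher. Under the main scaling the median over those 956 genes was -1.01, close to that of the members. Scaling over them brings their own median to -0.01, so genes with a like change come to lie near 0. With all 16 libraries in 1 fit, which changes both the scaling and the dispersion, 61.4% of calls were higher and 8 members were called lower.

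Hmgcs1 encodes the cytosolic HMG-CoA synthase, which condenses acetyl-CoA with acetoacetyl-CoA at the start of the pathway. Its polyA levels, normalized by trimmed mean of M-values (TMM) within each kind of RNA, were 59.6, 62.3, 59.8 and 65.4 CPM in control replicates 1 to 4 and 32.5, 43.1, 48.6 and 29.3 CPM in miR-106b replicates 1 to 4. The groups did not overlap, and the miR-106b libraries were spread more widely. The log2 fold change was -0.68 ± 0.15 (SE, n = 4 per group; edgeR adjusted p = 0.00324). Idi1, the isomerase that makes dimethylallyl diphosphate, was the least abundant member, with 10.3, 9.86, 10.9 and 8.57 CPM in control and 3.58, 7.76, 6.35 and 3.71 CPM in miR-106b libraries. Replicates 1 and 4 were the low ones, and replicate 2 came close to the lowest control library. Its log2 fold change was -0.88 ± 0.25 (SE, n = 4 per group; edgeR adjusted p = 0.0139).

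Fdft1 encodes squalene synthase, the first enzyme committed to sterols. It measured 35.4, 44.9, 40.6 and 41.8 CPM in polyA control and 21.1, 28.9, 34.2 and 17.1 CPM in polyA miR-106b libraries. The highest miR-106b library lay just under the lowest control library, and the log2 fold change was -0.68 ± 0.18 (SE, n = 4 per group; edgeR adjusted p = 0.0106). Sqle, the squalene epoxidase that commits squalene to the sterol ring and acts as a control point of the pathway, fell most among the members under the main scaling. Control libraries held 72.3, 75.8, 73.9 and 71.0 CPM and miR-106b libraries 14.3, 30.0, 49.4 and 14.5 CPM. The controls were tightly grouped, while the miR-106b libraries ranged more than 3-fold. Its log2 fold change was -1.43 ± 0.33 (SE, n = 4 per group; edgeR adjusted p = 0.00705).

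Lss encodes lanosterol synthase, which closes the sterol rings. Its levels were 52.8, 59.1, 56.4 and 55.6 CPM in polyA control and 19.0, 29.4, 39.5 and 12.2 CPM in polyA miR-106b libraries. Replicate 4 was the lowest and replicate 3 the highest, and the log2 fold change was -1.15 ± 0.25 (SE, n = 4 per group; edgeR adjusted p = 0.00347). Cyp51, the cytochrome P450 that removes the 14-alpha methyl group of lanosterol, measured 66.3, 71.1, 59.99 and 60.2 CPM in control and 23.7, 30.5, 40.9 and 15.6 CPM in miR-106b libraries. Under the main scaling all miR-106b libraries were well under the controls. The log2 fold change of Cyp51 was -1.21 ± 0.21 (SE, n = 4 per group), with the smallest edgeR adjusted p among the members, 0.000969.

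Srebf2 encodes SREBP-2, the factor that drives the genes of the pathway, its own included, and an intron of the gene holds Mir33. It was the most abundant member, with 499.2, 531.9, 532.7 and 564.1 CPM in polyA control and 222.2, 307.5, 369.4 and 186.6 CPM in polyA miR-106b libraries. The groups were far apart, and the log2 fold change was -0.97 ± 0.18 (SE, n = 4 per group; edgeR adjusted p = 0.00137). Insig1, which retains SCAP in the endoplasmic reticulum and is itself induced by SREBP, measured 39.6, 38.1, 39.1 and 41.3 CPM in control and 17.3, 33.99, 29.3 and 24.1 CPM in miR-106b libraries. Its fall under the main scaling was the smallest of the 8, at -0.60 ± 0.17 on the log2 scale (SE, n = 4 per group; edgeR adjusted p = 0.0149).

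**Figure D1:**
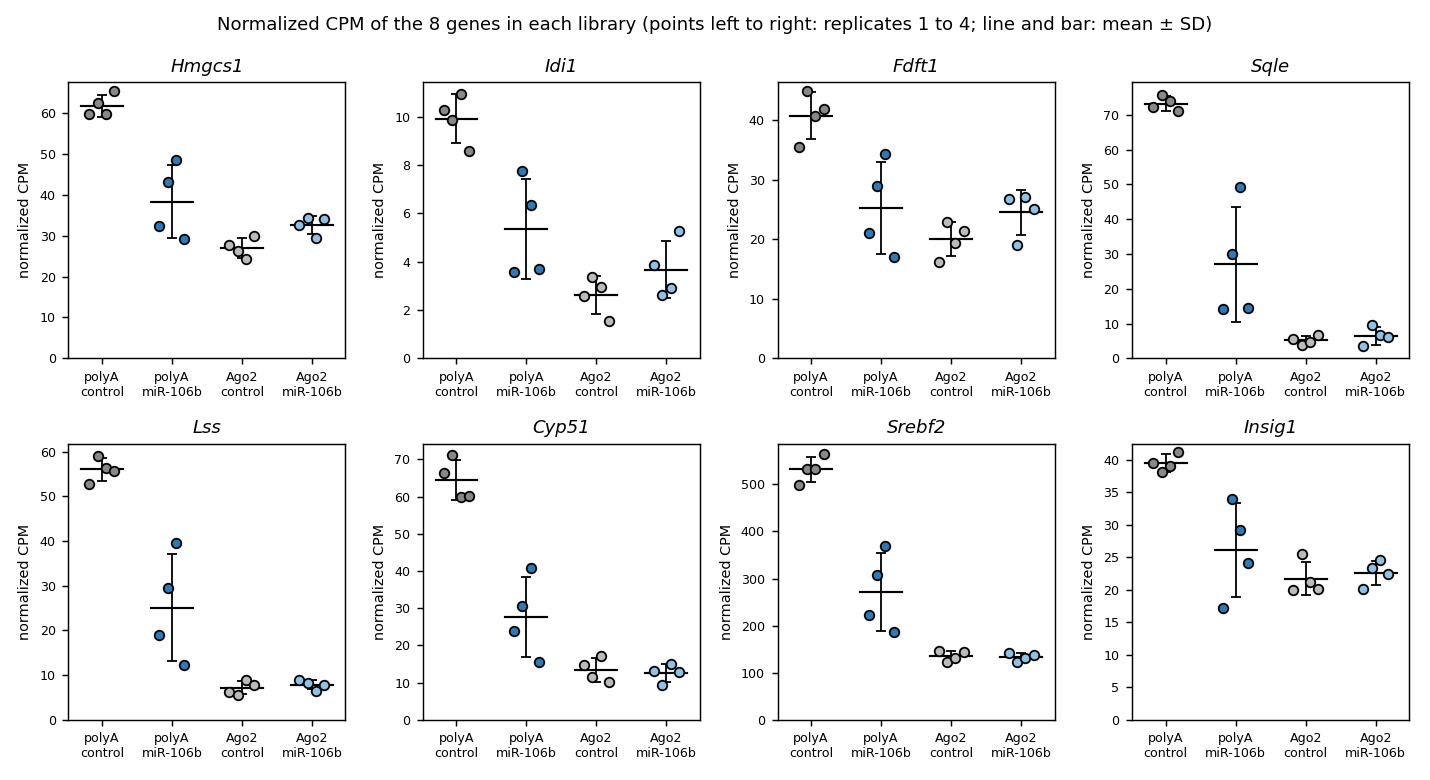
Normalized CPM (linear axis from 0) of each of the 8 genes in the 4 groups; points are replicates 1 to 4 from left to right, lines are means and bars SD (n = 4). In polyA RNA all miR-106b points lie below all control points. With libraries scaled over the 956 genes low in Ago2-bound RNA, 5 of the 8 genes changed sign and none was called. In Ago2-bound RNA the points of the transfections lie close together.

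Under that scaling no member was called in either direction. The log2 fold changes were -0.45 for Sqle, -0.21 for Cyp51, -0.16 for Lss, 0.06 for Srebf2, 0.15 for Idi1, 0.34 for Fdft1, 0.35 for Hmgcs1 and 0.47 for Insig1. All 8 lay below the median of all genes, 1.01, under the same scaling. Some calls of the main analysis also rested on single libraries. With edgeR, 5 of 8 members remained called lower without polyA control replicate 2 or without replicate 3, and the adjusted p of Fdft1 was then 0.0778 or 0.0579. Idi1 and Insig1 were each no longer called without polyA control replicate 1, 2 or 3 or without polyA miR-106b replicate 1. Their adjusted p in edgeR rose to at most 0.0743 and 0.0754, both without polyA control replicate 3. Without polyA miR-106b replicate 1 their log2 fold changes were smallest, -0.62 and -0.34, and the sign never changed when a library was left out.

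The 4 polyA miR-106b cultures did not respond alike. Replicates 1 and 4 were the lowest for all 8 members, at a median of 39.3% and 36.2% of the control mean. Replicates 2 and 3 stood at 63.75% and 69.97%. Replicate 3 was the highest for 6 members and replicate 2 for Idi1 and Insig1. Over the 8 polyA libraries the pairwise Pearson r among members, on log2 CPM, ran from 0.816 to 0.998 in 28 pairs. This is a description over libraries that differ in depth and in treatment. The sum of cardiac genes, as a percent of its Ago2 control mean, was 41.5, 71.8, 51.8 and 69.5 in miR-106b replicates 1 to 4 and 27.2, 21.2, 22.9 and 30.2 in control replicates 1 to 4. Cardiac transcripts were thus higher in every miR-106b library, in an order that differed from that of the members. Endothelial, macrophage and red cell genes followed the cardiac order, lowest in replicate 1 and highest in replicate 2. Fibroblast genes did not, summing to 27060, 16860, 14680 and 20000 CPM in miR-106b replicates 1 to 4. They were highest in replicates 1 and 4, where the members were lowest.

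**Figure D2:**
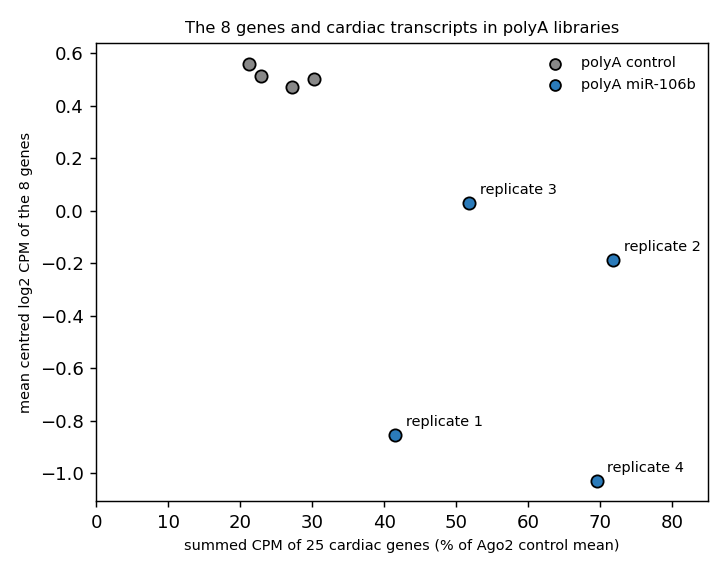
Mean centred log2 normalized CPM of the 8 genes against the summed CPM of 25 cardiac genes (percent of the Ago2 control mean) in the 8 polyA libraries, each point being 1 library. Control libraries lie at 21.2% to 30.2% cardiac transcripts, and among miR-106b libraries replicates 1 and 4 are lowest for the 8 genes at 41.5% and 69.5%.

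Of the cardiac genes, 23 of 24 tested were higher by edgeR in polyA RNA of miR-106b than of control cells under the main scaling, against 19.0% of all genes, at a median log2 fold change of 1.24. By the same test 8 of 8 endothelial genes, 6 of 7 of macrophages and leukocytes, 4 of 5 of red cells and 6 of 6 of fibroblasts were higher. Of the lists of liver and steroid-producing cells 1 gene each was tested and not called, and of kidney epithelium 1 gene of 8 was tested and was lower (-1.07). Myl7, the atrial light chain, was not tested and stayed at or under 2.28 CPM. Genes of endothelium summed to 281 to 419.5 CPM in polyA control and 535 to 977.3 CPM in polyA miR-106b libraries, with Cdh5 the most abundant, and to 1220 to 1352 CPM in Ago2 libraries. Genes of macrophages and leukocytes, led by Lyz2, summed in the same order to 139.6 to 203.1, 276 to 426 and 552.1 to 619.2 CPM, and red cell genes, led by Hbb-bs, to 28.5 to 43.6, 65.0 to 113.1 and 124.9 to 156.8 CPM. Fibroblast genes, led by Col1a1, summed to 11110 to 13050, 14680 to 27060 and 18140 to 18950 CPM. Kidney epithelial genes, led by Lrp2 in polyA libraries, summed to 13.2 to 27.2, 3.51 to 16.4 and 0.541 to 5.80 CPM. The part of these transcripts in the change of the members was not tested.

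In Ago2-bound RNA the members showed no detectable change. Sqle measured 5.71, 3.92, 4.85 and 6.79 CPM in Ago2 control and 3.50, 9.65, 6.79 and 6.13 CPM in Ago2 miR-106b libraries, and Srebf2 145.8, 123.7, 130.6 and 143.6 CPM against 142.1, 122, 131.9 and 137.7 CPM. The ranges of the transfections overlapped for both genes. Of the 8 members, 0 passed in edgeR, where 0% of all genes (0 of 14897) passed and 826 genes had an unadjusted p under 0.05. DESeq2 called 2 genes and edgeR's likelihood ratio test 18, with 0 members in either. Hmgcs1 was the single member with an unadjusted p under 0.05, at 27.7, 26.3, 24.2 and 30.0 CPM in control and 32.6, 34.2, 29.4 and 34.1 CPM in miR-106b libraries. Its log2 fold change was 0.27 (95% confidence interval 0.01 to 0.52; edgeR adjusted p = 0.878). Log2 fold changes of the members ran from -0.10 for Cyp51 to 0.51 for Idi1, with a median of 0.20 against 0.00 over all genes. Without Ago2 miR-106b replicate 2 the median of the members was 0.08 and the change of Sqle went from 0.30 to 0.05. The 95% confidence intervals were widest for the members with few counts in Ago2-bound RNA, -0.32 to 1.33 for Idi1 and -0.29 to 0.90 for Sqle, and narrowest for Srebf2, -0.16 to 0.10.

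For every member the change in polyA RNA was larger in size than that in Ago2-bound RNA. The ratio of Ago2-bound to polyA RNA therefore largely restates the change in polyA RNA. Changes in Ago2-bound RNA that were not called also enter the ratio, such as 0.51 for Idi1, 0.28 for Fdft1 and 0.27 for Hmgcs1. Tested as an interaction over all 16 libraries, the ratio was higher with miR-106b for 7 of 8 members by edgeR, against 7.61% of all genes (1134 of 14897). Here too the members had been chosen with earlier results known. The median log2 change in ratio was 0.89 over the members and -0.07 over all genes. It was 1.59 ± 0.55 for Sqle (SE; edgeR adjusted p = 0.0434) and 1.25 ± 0.44 for Idi1 (SE; edgeR adjusted p = 0.038). For Lss and Cyp51, the enzymes that make and demethylate lanosterol, it was 1.12 ± 0.36 and 0.96 ± 0.31 (SE), with edgeR adjusted p of 0.0252 and 0.0254. Fdft1 had 0.82 ± 0.25, Hmgcs1 0.80 ± 0.19 and Srebf2 0.80 ± 0.20 (SE), with edgeR adjusted p of 0.0161, 0.00245 and 0.00512. Insig1, at 0.52 ± 0.23 (SE), was not called (edgeR adjusted p = 0.0908). In this ratio 27.9% of calls were higher, and 46.5% were with library size only, 45% with TMM within each kind of RNA and 44.3% with no filter, which moved the median of all genes to 0.10, 0.08 and 0.23. All 8 members were higher with library size only and with TMM within each kind of RNA. The ratio of Sqle was not called with no filter, nor that of Idi1 with replicate number as a block. With the polyA libraries scaled over the 956 genes, a choice made after seeing the data, 0 of 8 members were higher and 0.914% of calls were. The members' median was then 0.03, that of all genes -0.98, and Hmgcs1, Insig1, Fdft1 and Srebf2 changed sign.

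Several of these ratio calls were close to the threshold. Leaving out 1 library at a time ended the call in 12 of 16 fits for Sqle, with an edgeR adjusted p of up to 0.121 without Ago2 miR-106b replicate 2. It ended the call in 9 of 16 fits for Idi1, up to 0.121 in edgeR without Ago2 miR-106b replicate 4. For Lss it ended in 4 fits, those without replicate 1 or 2 of either Ago2 group, with an edgeR adjusted p of up to 0.0561. For Cyp51 it ended in 3 fits, those without Ago2 control replicate 2 or 4 or Ago2 miR-106b replicate 3, with an edgeR adjusted p of up to 0.0649. Hmgcs1, Fdft1 and Srebf2 remained called in all 16 fits. Without Ago2 control replicate 1 or 2, 4 members were called. Insig1 was called without polyA miR-106b replicate 2, at 0.77 with an edgeR adjusted p of 0.012.

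In control cells the members were less abundant in Ago2 libraries than in polyA libraries. The groups held no control immunoprecipitation, so binding to Ago2 itself was not tested. All 8 were lower in Ago2-bound than in polyA RNA by edgeR, against 34.6% of all genes (5157 of 14897), with a median log2 difference of -1.65 against -0.03 over all genes. Of all calls 50.3% were higher, and 37.9% were with library size only, which moved the median of all genes to -0.35. Sqle differed most, at -3.46 ± 0.36, followed by Lss at -2.65 ± 0.24, Cyp51 at -1.96 ± 0.21, Srebf2 at -1.66 ± 0.14 and Idi1 at -1.64 ± 0.30 (SE). Hmgcs1 was at -0.88 ± 0.13, Fdft1 at -0.72 ± 0.17 and Insig1 at -0.56 ± 0.15 (SE). In miR-106b cells, 4 of 8 members were lower in Ago2-bound RNA by edgeR, against 24.5% of all genes (3645 of 14897). These were Sqle at -1.86 ± 0.38, Lss at -1.53 ± 0.26, Cyp51 at -0.996 ± 0.23 and Srebf2 at -0.87 ± 0.14 (SE). Idi1 at -0.39 ± 0.32, Hmgcs1 at -0.08 ± 0.14, Insig1 at -0.04 ± 0.16 and Fdft1 at 0.10 ± 0.18 (SE) were not called. Of all calls 47.3% were higher, and 34% were with library size only, which moved the median of all genes to -0.19 and made Fdft1 negative. These comparisons and those of polyA RNA share libraries. Cardiac genes had the opposite placement, with 23 of 24 higher in Ago2-bound than polyA RNA of control cells, against 35.1% of all genes, and a median log2 difference of 2.29.

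Levels of different members were compared per kilobase of annotated exon in polyA control cells. Srebf2 was highest at 74.1 CPM per kb, followed by Cyp51 at 14.6, Hmgcs1 at 13.5, Sqle at 13.2 and Insig1 at 12.8 CPM per kb. The SD between libraries of the last 4 was 1.21, 0.59, 0.369 and 0.431 CPM per kb. Cyp51 and Hmgcs1, and Hmgcs1 and Sqle, differed by less than the larger SD of the pair, and Sqle and Insig1 by about as much as it. Fdft1 at 9.63, Lss at 5.19 and Idi1 at 2.83 CPM per kb stood lower, and apart from each other. Lengths join the exons of all annotated transcripts of a gene. The level per kb of every member, and so their order, depends on which transcripts the cells use. Lss has the longest exon annotation of the 8, 10.8 kb over 8 transcripts.

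Most other genes of the synthesis steps were lower as well under the main scaling. Of 13 tested, 9 were lower (21.5% of all genes), 0 higher and 4 not called in polyA RNA by edgeR, at a median log2 fold change of -0.77. Under the scaling over the 956 genes, where nearly all calls were higher, 0 were called lower. Along the mevalonate steps, Mvk (mevalonate kinase) had a log2 fold change of -0.65, Acat2 (acetoacetyl-CoA thiolase) -0.74 and Fdps (farnesyl diphosphate synthase) -1.57. After lanosterol, Lbr and Hsd17b7, a sterol reductase and a ketosteroid reductase, had -0.92 and -0.85. Nsdhl and Msmo1, which remove the methyl groups at carbon 4, had -1.19 and -1.51, and the desaturase gene Sc5d -0.77. In Ago2-bound RNA 0 of the 13 were called by edgeR, with 1 at an unadjusted p under 0.05 and 0 by DESeq2, and in the ratio 3 were higher, against 7.61% of all genes, and 10 not called. Leaving out 1 library at a time gave 3 to 6 of them higher in the ratio.

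Lists with other roles are given by the same counts, beside 21.5% of all genes lower and 19.0% higher in polyA RNA. Of 5 genes of the isoprenoid branch, Nus1, a subunit of the dolichol-making prenyltransferase, was the 1 called lower in polyA RNA (-0.59 on the log2 scale), a share near that of all genes, and the ratio of Pdss2, of ubiquinone side-chain synthesis, was lower at -0.97. Of 7 regulators of SREBP, 4 were lower and 0 higher, the members Srebf2 and Insig1 together with Srebf1 at -0.37 and Scap at -0.33. Of 7 genes of uptake and transport, 2 were lower in polyA RNA and 0 higher, at a median log2 fold change of 0.10, again a share near that of all genes. These were Scarb1, the HDL receptor, at -0.76 and Stard4, a cytosolic sterol carrier, at -1.18.

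Of 7 tested genes of storage and efflux, 5 were higher (19.0% of all genes) and 1 lower (21.5% of all genes) in polyA RNA by edgeR, at a median log2 fold change of 1.06. The cholesterol exporters Abca1 and Abcg1 had 1.06 and 1.51, and Apoe, which encodes an apolipoprotein, 1.26. The sterol-sensing receptor gene Nr1h3 (LXR alpha) had 1.31, and the cholesteryl ester hydrolase Nceh1 0.86. Like the cardiac genes, these 5 were higher in Ago2-bound than in polyA RNA of control cells, by 1.92, 2.20, 2.30, 2.31 and 1.89 on the log2 scale. Nr1h2 was also higher there, at 0.42, so 6 of 7 tested genes were, against 35.1% of all genes. Soat1, which esterifies cholesterol for storage, was the gene that fell, at -0.96. It was lower in Ago2-bound than in polyA RNA of control cells, at -2.20. Fatty acid synthesis, a comparison list driven by SREBP-1, had 8 of 12 genes lower and 2 higher, beside the same shares of all genes, at a median of -0.90. Among them Acly had -0.95, Fasn -1.14, Fads1 -0.90, Fads2 -1.08 and Elovl6 -1.16, while Gpam and Acss2, at 0.62 and 0.76, were higher. Directions in polyA RNA of these lists are those of the main scaling, and the other moved all genes upward.

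**Figure D3:**
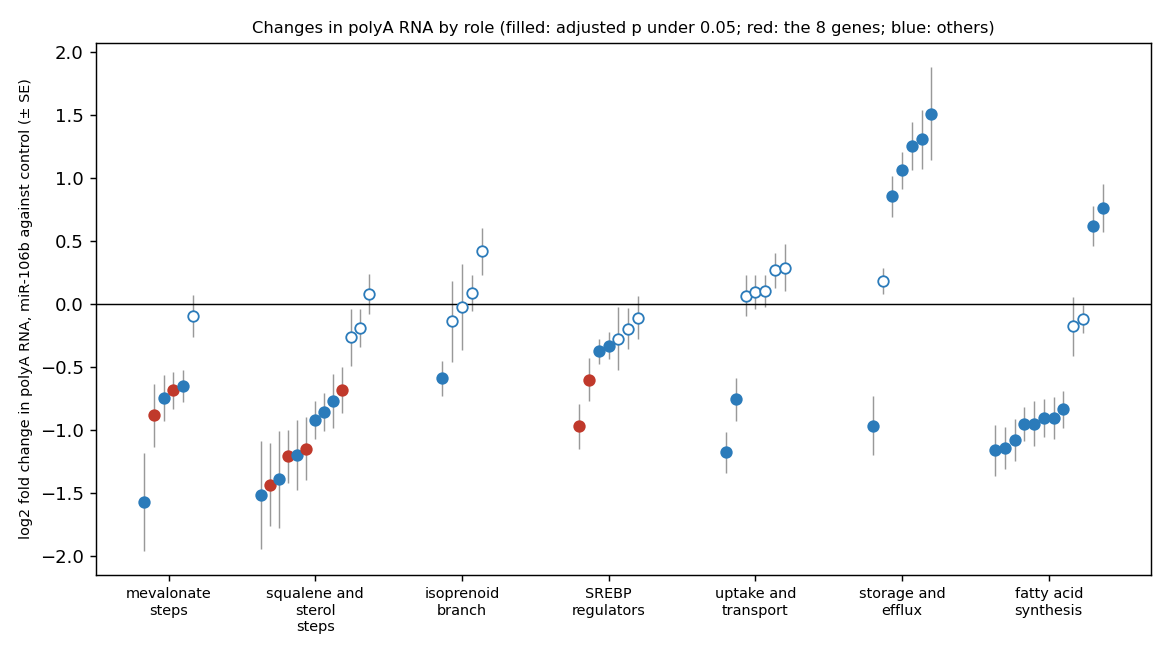
Log2 fold change in polyA RNA (miR-106b against control, main scaling; bars SE) of each tested gene by role, red for the 8 genes and blue for others, filled where the edgeR adjusted p was under 0.05. Synthesis genes lie mostly below 0 and storage and efflux genes mostly above 0, and scaling over the 956 genes low in Ago2-bound RNA left no synthesis gene called lower.

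Outside these lists, genes whose polyA levels closely followed the mean profile of the members over 8 libraries included Ptgs2 (Pearson r 0.997), Ect2 (0.997), Pitpnm1 (0.997) and Etv4 (0.997). They changed by -1.90, -2.08, -0.54 and -2.06 on the log2 scale. Of the 10923 genes compared, all averaging 5 CPM or more, 524 had r over 0.95. Members and listed genes of that level are included in both counts. The r values include the difference between the transfections.

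By GENCODE annotation of GRCm38, Hmgcs1 (ENSMUSG00000093930) lies at chr13:119690379-119708260 and Idi1 (ENSMUSG00000058258) at chr13:8885501-8892451, both on the plus strand. Fdft1 (ENSMUSG00000021273) lies at chr14:63145150-63179578 on the minus strand, Sqle (ENSMUSG00000022351) at chr15:59315077-59331192 on the plus strand and Lss (ENSMUSG00000033105) at chr10:76531588-76557138 on the plus strand. Cyp51 (ENSMUSG00000001467) is at chr5:4081145-4104746 on the minus strand, Srebf2 (ENSMUSG00000022463) at chr15:82147181-82205379 and Insig1 (ENSMUSG00000045294) at chr5:28071363-28078662, both on the plus strand. The libraries did not keep strand, so counts near genes with overlapping exons are uncertain. These are Gm48342 for Hmgcs1, Gm48574 for Idi1, Ctsb for Fdft1, 4930483K19Rik for Lss and Akap9 for Cyp51. Sqle, Insig1 and Srebf2 have no exon overlap with another gene.

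Because miR-106b was transfected, its sequence is shown with the match in a member. The mature miR-106b-5p (RefSeq, GRCm38.p6, chr5:138165787-138165807, minus strand) is printed with its seed, bases 2 to 8, in capitals, and the site in Lss with the letters that pair with the seed in capitals.
miR-106b-5p: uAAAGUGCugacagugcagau
Lss: tggccatggtGCACTTTgtgccctctg
The letters GCACTTT or CACTTTA were searched on the sense strand of the longest annotated 3′ UTR of each gene. They occurred in 1 of 8 members, Lss, where GCACTTT lies in the 3′ UTR at chr10:76554619-76554625, and in 23.0% of 13229 genes tested with an annotated 3′ UTR. The 6 letters CACTTT occurred in 3 members, Insig1, Idi1 and Lss, and in 43.5% of those genes. Of the 13 other synthesis genes, 1 had the longer match, Acat2.

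Promoters are shown because the members moved together, and 6 of 8 members matched the RefSeq promoter table (GRCm38.p6; 250 bases before to 50 after the start), all but Sqle and Fdft1. Both strands were searched for the sterol regulatory element TCACNCCAC, its shorter core CACNCCAC, which lies within it, and the CCAAT box CCAAT. TCACNCCAC occurred in 1 of 6 members, Hmgcs1, and in 1.24% of 32851 promoters. CACNCCAC occurred in 2, Hmgcs1 and Insig1, and in 6.24% of promoters. CCAAT occurred in 6 of 6 members, in 11 of 12 other synthesis genes and in 6 of 9 fatty acid genes, against 37.4% of promoters. A match is a description of the letters. Capitals mark the element in Hmgcs1 (chr13:119690204-119690232) and the CCAAT box, read as ATTGG where it lies on the other strand, in Srebf2 (chr15:82147124-82147148), Lss (chr10:76531533-76531557) and Cyp51 (chr5:4104712-4104736), each along the gene's own strand.
Hmgcs1: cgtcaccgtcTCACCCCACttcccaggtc
Srebf2: tcgcgcgccgATTGGctaatgcaag
Lss: tgatgctctgATTGGccgagctcgc
Cyp51: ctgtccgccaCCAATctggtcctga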

How the data were processed

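The authors aligned single-end reads of non-strand-specific libraries to GRCm38 with TopHat2 (version 2.0.10 in the submitters' processing notes) and counted reads per gene with HTSeq, and the deposited table holds those raw counts. For the present analysis edgeR 4.0.16 ran under R 4.3.3 (limma 3.58.1), and a gene was kept if 3 or more of the 4 libraries of some group reached 1 CPM. TMM factors, robust dispersion and two-sided quasi-likelihood F tests were used with Benjamini-Hochberg adjustment over the 14897 genes kept and a threshold of 0.05. The RNA kinds were each fitted over 8 libraries, and ratios over 16. SE is the fold change divided by the root of F, and intervals are 95%. DESeq2 1.42.0, other scalings, filters and tests, a replicate block and leaving out each library were the alternatives. Scripts were tested on simulated data. Sequences were searched with Python 3.11.15. Genes of the role lists were named where they passed in polyA RNA or the ratio, at most 5 per list and direction by smallest p, together with any that passed against the direction of its list. Some listed genes are not reported here. Members and lists were chosen with earlier results of these data known. Replicates were separate cultures.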

Additional observations from a re-analysis of the deposited data

Results flagged for a closer look

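For 7 of the 8 genes the change with miR-106b in Ago2-bound RNA differed from that in polyA RNA by the interaction test of edgeR. Of all genes 27.3% were called in this test, 7.61% as higher. In Ago2-bound RNA alone 0 of 14897 genes were called by edgeR, so the differences largely restate the change in polyA RNA. The differences, Ago2 minus polyA on the log2 scale, were 1.59 for Sqle, 1.25 for Idi1, 1.12 for Lss, 0.964 for Cyp51, 0.817 for Fdft1, 0.804 for Hmgcs1 and 0.795 for Srebf2. The calls of Sqle, Idi1, Lss and Cyp51 were each lost when some single libraries were left out, as given above, and none of the 7 was called with polyA libraries scaled over the 956 genes. No library stood apart from the other 3 of its group in any of the 32 combinations of gene and group, by Dixon's test at its 95% critical value of 0.829.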

How the results depend on the processing

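Scaling polyA libraries over the 956 genes low in Ago2-bound RNA, chosen after seeing the data, gave 11008 calls in place of 6034, 0 of 8 members and 0 other synthesis genes called lower. Under it Hmgcs1 (0.352), Insig1 (0.473), Fdft1 (0.343), Idi1 (0.153) and Srebf2 (0.0562) changed sign, none called, in a shift shared by all genes. With it the ratio had 8970 calls, 0 members and 0 other synthesis genes higher, and Hmgcs1 (-0.0825), Insig1 (-0.402), Fdft1 (-0.0556) and Srebf2 (-0.0837) changed sign, none called. The other 9 alternatives kept all 8 members lower in polyA RNA. The cause was not tested.

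In Ago2-bound RNA all genes called numbered 20 with no filter, 2 with at least 10 counts in every library, 2 with DESeq2, 18 with the likelihood ratio test and 1 with the replicate block, with no member among them. Replicate numbers did not pair libraries (same-number r -0.395 to 0.207, the same number being the closest in 3 of 16 comparisons). The block left 8 members lower in polyA RNA and 6 higher in the ratio, Idi1 having an edgeR adjusted p of 0.0639. In the ratio 5 other synthesis genes were higher, in place of 3, with library size only, no filter, DESeq2, the likelihood ratio test, the fit without the robust option and TMM within each kind of RNA. The Sqle ratio was not called with no filter. The filter of at least 10 counts left 5 other synthesis genes lower in Ago2-bound RNA of control cells, having removed genes with few counts. With library size only, Fdft1 in miR-106b cells went to -0.055. The shorter motif matched 2 members and the 6-letter site 3.

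Leaving out 1 library gave 5 to 8 members lower in polyA RNA and 4 to 7 higher in the ratio, 3 to 6 other synthesis genes higher in the ratio, and 0 to 40 calls in Ago2-bound RNA (8, 4 and 40 without control 4, miR-106b 1 and miR-106b 4). Changes in Ago2-bound RNA that were not called ranged from -0.216 to 0.046 for Cyp51 and -0.0748 to 0.0126 for Srebf2. Ago2 against polyA in miR-106b cells ranged from -0.0367 to 0.271 for Fdft1, -0.183 to 0.0494 for Hmgcs1 and -0.205 to 0.115 for Insig1. Idi1, Sqle and Lss were under 10 CPM in every Ago2 library, and the part of depth was not tested.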
